A study of Rattus norvegicus with 12 samples.

Results

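The genes described here are 33 genes of the ATF4 and amino acid response programme, out of 18166 named genes measured on 12 arrays of primary rat cardiomyocytes. The list held 34 gene symbols, taken by name. Earlier results of these data were known when it was chosen. Sesn2, the symbol with no probe of its own in the platform's probe table, is not analysed here. Each gene was read from the probe with the highest mean over the 12 arrays, and Mthfd2 was the member with 2 probes to choose from. The cells, labelled wild type, were exposed to SIN-1, a compound that breaks down to yield the oxidant peroxynitrite. There were 3 arrays for each of 4 groups: SIN-1 for 70 min, for 4 h and for 8 h, and control. All groups shared a DMEM/F12-based medium with fetal bovine serum at 20% and horse serum at 5%, to which L-glutamine (2 mM), pyruvate (3 mM) and non-essential amino acids (0.1 mM) had been added. The labels give neither the SIN-1 concentration nor the culture time and vehicle of the control. A single set of 3 control arrays served all treated times. The arrays are described as biological triplicates with no more said on separate cultures, so p-values measure the spread between these arrays.

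ATF4 is a leucine zipper transcription factor of the integrated stress response. Stress-activated kinases phosphorylate the translation factor eIF2, general protein synthesis falls, and the Atf4 message is translated more, so ATF4 protein can change with little change in its mRNA. ATF4, often paired with a C/EBP factor, then drives genes for amino acid transport, amino acid synthesis and tRNA charging, and also the regulators CHOP (Ddit3) and Trib3, the phosphatase subunit GADD34 (Ppp1r15a) and the glutathione-degrading enzyme Chac1. In heart muscle the response is known from mitochondrial and ischaemic stress.

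Sequences of the members were examined for the element that ATF4 and C/EBP factors share, through which ATF4 is known to act on its targets. The window held 250 bases before and 50 after the annotated start (RefSeq, GRCr8), and the letters searched were TGATGNAA on either strand. A match was found in 9 of the 30 members with a promoter in the table, namely Aars1, Chac1, Fgf21, Nars1, Nupr1, Pycr1, Slc1a4, Slc7a1 and Trib3, compared with 3.33% of 19005 protein-coding promoters and 3.82% of all 27457. The E-box CACGTG, its own reverse complement, lay in 7 of 30 members (Aars1, Atf4, Cth, Fgf21, Nupr1, Slc1a4 and Slc7a5) and in 7.27% of protein-coding promoters. The endoplasmic reticulum stress element (ERSE, searched with its standard spacing) was in 0 of 30 members and in 0.095% of protein-coding promoters. The windows printed below belong to the 6 genes that hold the shared element and changed against control at some time. Each reads 5′ to 3′ on the strand of the gene, with the element in capitals; where the capitals do not begin with TGATG, it lies on the other strand.
Nupr1: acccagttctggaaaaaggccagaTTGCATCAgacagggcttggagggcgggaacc
Slc7a1: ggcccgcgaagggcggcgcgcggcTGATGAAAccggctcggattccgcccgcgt
Chac1: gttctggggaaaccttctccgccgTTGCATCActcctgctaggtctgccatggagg
Trib3: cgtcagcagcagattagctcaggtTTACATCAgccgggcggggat
Slc1a4: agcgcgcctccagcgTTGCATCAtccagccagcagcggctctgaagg
Nars1: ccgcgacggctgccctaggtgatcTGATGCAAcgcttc
The Nupr1 stretch is chr1:190645925-190645980 on the minus strand, with the element beginning at position -55 from the start, and the Slc7a1 stretch is chr12:11664434-11664487 on the plus strand, at -30. Chac1 is at chr3:126795940-126795995, plus strand, -167, and Trib3 at chr3:161275534-161275578, minus strand, -21. Slc1a4 is at chr14:98761766-98761812, minus strand, -235, and Nars1 at chr18:60275783-60275820, minus strand, -14. These 6 genes did not move together: at 70 min Nupr1, Chac1 and Trib3 were lower than control and Slc7a1, Slc1a4 and Nars1 were higher, as given below. A match describes letters and does not show that a factor was bound. The members were listed as genes of the ATF4 response, so a higher share of the element among them could be foreseen and is not a result of the arrays.

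Values are log2 expression, so a difference of 1 is a 2-fold change, and a gene was called changed where limma's p, adjusted over all 18166 genes of the comparison, was under 0.05. The members are bright transcripts, with a median at the 94.4th percentile of gene means. The brighter genes set beside them below are all those at or above the median, so they are not matched to the members in level. Of the 33, 32 had a mean at or above the median gene mean of 5.75, and Fgf21, a secreted hormone of the stress response, was the exception at 3.67 to 3.83 in the group means, below the median of 4.33 for probes with no listed gene. Their median SD within a group was 0.07, against 0.13 for all genes. The median over all probes was highest on 3 arrays, replicate 2 (5.11) and replicate 3 (5.12) of 70 min and replicate 3 of 4 h (5.09). The other arrays had medians of 4.98 to 5.05, and results are given without those 3 where that matters. In that setting only replicate 1 is left at 70 min, and replicates 1 and 2 at 4 h. A call lost there cannot be told apart from the loss of replication, and for comparisons with 70 min only the fold change is given. With whole cultures measured, less RNA per cell and fewer cells of a type cannot be told apart.

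Defining transcripts of cardiomyocytes were dim in every group. Of 11 measured markers 8 had means below the median gene, among them the myosin genes Myh6 and Myh7, the ryanodine receptor gene Ryr2, Actn2 and Ttn, whose means lay at the 13.4th to 26.33rd percentile of all genes. Pln and Tnnc1 were brighter, at the 83.12th and 71.59th percentile. The fibroblast matrix genes Col1a1, Col1a2, Col3a1 and Postn were at the 99.59th percentile or above and Lum at the 90.55th. The fibroblast markers Dcn, Pdgfra and Tcf21 were at the 51.12th, 48.91st and 33.01st. Of the smooth muscle and pericyte markers, Tagln and Pdgfrb were at the 99.88th and 97.83rd, and Myh11 and Rgs5 at the 48.92nd and 48.77th. Probes differ in how strongly they bind, and such positions are not a cell count. The summed log2 level of the 8 fibroblast markers was 14.16 to 14.23 at 70 min, 14.26 to 14.29 at 4 h and 14.31 to 14.36 at 8 h, against 14.32 to 14.35 in control. That of the cardiomyocyte markers was 9.34 to 9.45 at 70 min, 9.15 to 9.19 at 4 h and 9.16 to 9.36 at 8 h, against 9.36 to 9.49 in control. Of the fibroblast markers 3 of 8 were called lower at 70 min (Lum, Dcn and Col3a1) and 1 at 4 h, and of the cardiomyocyte markers 0 of 11 and 1 of 11. At 70 min 7.81% of all genes were called lower and 6.76% higher, and at 4 h 1.77% lower and 2.08% higher. Among endothelial, smooth muscle and macrophage markers, 1 of 3 was lower, 1 of 4 higher and 0 of 5 changed at 70 min. At 4 h 0 of 3 changed, 1 of 4 was lower and 0 of 5 changed. The lower one at 4 h was Pdgfrb (-0.49, limma adjusted p = 6.14e-05). The part of these shifts in the results below was not tested.

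**Figure D1:**
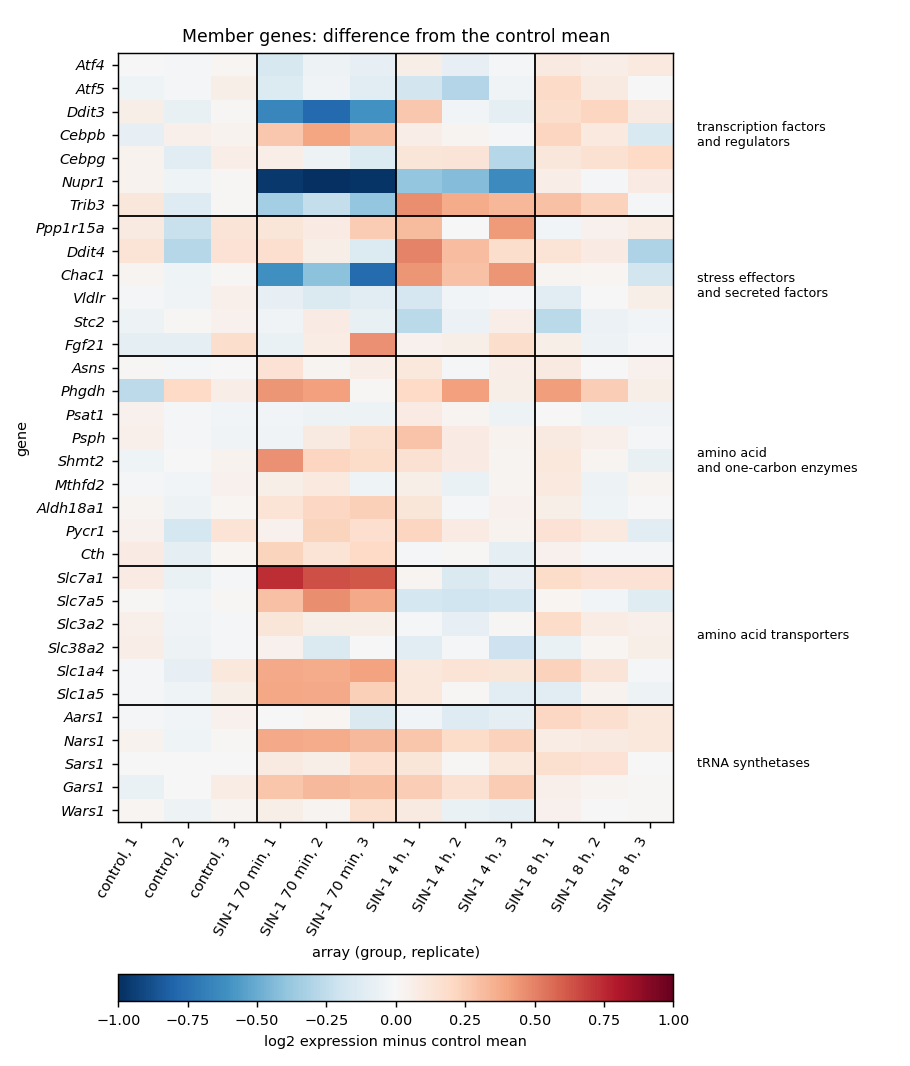
Each row is a member gene and each column an array, ordered as control, 70 min, 4 h and 8 h with 3 replicates each; colour shows log2 expression minus the control mean, from blue (lower) to red (higher). The 70 min columns hold the strongest colours, blue for Nupr1, Ddit3 and Chac1 and red for Slc7a1, and the 8 h columns are pale.

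The first comparison asked which of these genes differed after 70 min of SIN-1. The programme divided: 4 of 6 amino acid transporters, 2 of 5 tRNA synthetases, 2 of 9 enzymes and the regulator Cebpb rose. Of 7 regulators 3 fell (Nupr1, Ddit3 and Trib3), and of 6 stress effectors and secreted factors 1 fell (Chac1). Altogether 13 of 33 members were called, 9 higher and 4 lower, compared with 14.6% of all genes (6.76% higher and 7.81% lower) and with 25.2% of the genes at or above the median brightness. With arrays centred on their medians the split was 5 higher and 4 lower among members, and 683 higher and 1371 lower among all genes, against 1228 and 1419 without centring. The members' median log2 fold change was 0.08, against 0.03 for all genes, and with centring 0.03, against -0.02. Their median absolute log2 fold change was 0.15, against 0.16 for all genes and 0.17 for the brighter genes. The median SE was 0.07 for members and 0.13 for all genes, so the share called is not a measure of larger change. The values of 21 members did not overlap between 70 min and control arrays, where 31.8% of all genes did not. Without control replicate 1, 8 members were called.

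Among the transcription factors and regulators, Nupr1 showed the largest fall. This gene encodes a small chromatin-associated protein induced in many stresses. It read 10.08, 9.999 and 10.06 in the 70 min arrays, against 11.08, 11.002 and 11.05 in the control arrays. The groups lay far apart relative to their spread, a log2 fold change of -0.998 ± 0.06 (SE, limma adjusted p = 1.08e-08), or 2.00-fold lower.

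Ddit3, which encodes the pro-apoptotic factor CHOP, read 7.82, 7.69 and 7.87 at 70 min, against 8.53, 8.40 and 8.49 in control. All treated values lay below all control values, at -0.68 ± 0.09 (SE, adjusted p = 5.68e-05). Trib3, a pseudokinase that binds and restrains AKT and CHOP, read 7.16, 7.26 and 7.11 at 70 min, against 7.61, 7.37 and 7.52 in control, a smaller separation of -0.32 ± 0.10 (adjusted p = 0.0307). The call of Trib3 ended without control replicate 1 or 3 (0.148 and 0.0901) and without 70 min replicate 1 or 3 (0.057 and 0.114). It also ended after a further quantile normalization (0.0522) and with limma's variance prior held constant over expression level, called the model with no trend below (0.0599). Without the 3 arrays of highest median, where its call ended too, the log2 fold change was -0.34.

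Of the 4 other factors, Cebpb was called and Atf4, Atf5 and Cebpg were not. Atf4 itself read 10.54, 10.65 and 10.61 at 70 min, against 10.69, 10.68 and 10.71 in control; the groups did not overlap, yet the difference of -0.09 ± 0.05 (SE) did not pass (adjusted p = 0.212). Atf5, a close relative of Atf4 that is also translated more under eIF2 phosphorylation, stood at -0.09 ± 0.07, and Cebpg, a C/EBP partner of ATF4, at -0.04 ± 0.10. Cebpb, another C/EBP partner, read 7.04, 7.16 and 7.07 at 70 min, against 6.68, 6.82 and 6.80 in control. It rose by 0.32 ± 0.10 (adjusted p = 0.0392). That call ended when any control array was left out (0.156, 0.0666 and 0.082 for replicates 1, 2 and 3) and without 70 min replicate 2 or 3 (0.135 and 0.0849). It also ended with arrays centred on their medians (0.146), without the trend (0.0528) and without the 3 arrays of highest median, at a log2 fold change of 0.27.

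Of the 6 stress effectors and secreted factors measured, 1 was called at 70 min. Chac1, whose product cleaves glutathione, read 8.22, 8.42 and 8.06 in the 70 min arrays, against 8.87, 8.79 and 8.85 in the control arrays. Its treated values were the more scattered but all were below control, at -0.60 ± 0.09 (SE, adjusted p = 0.00014). Ppp1r15a, the eIF2 phosphatase subunit that ends the response, stood at 0.15 ± 0.11, and Ddit4, an inhibitor of mTORC1, at 0.03 ± 0.14. The lipoprotein receptor gene Vldlr stood at -0.11 ± 0.05, the glycoprotein hormone gene Stc2 at -0.01 ± 0.11 and Fgf21 at 0.15 ± 0.15, and none of these passed.

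The amino acid transporters were the role in which most members rose, 4 of 6 with none falling and a median of 0.36. Slc7a1, the transporter of arginine and lysine, read 9.14, 9.05 and 9.03 at 70 min, against 8.48, 8.33 and 8.39 in control. The shift of 0.67 ± 0.07 (SE, adjusted p = 4.3e-06), or 1.59-fold, was larger than in any other member that rose.

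Slc7a5, the light chain of the large neutral amino acid exchanger, read 9.48, 9.65 and 9.57 at 70 min, against 9.20, 9.17 and 9.21 in control (0.38 ± 0.06, SE, adjusted p = 0.000357). Slc1a4, a carrier of alanine, serine and cysteine, read 9.83, 9.83 and 9.85, against 9.43, 9.37 and 9.55 in control (0.38 ± 0.07, adjusted p = 0.000622). Its relative Slc1a5, which also carries glutamine, read 7.54, 7.53 and 7.39, against 7.14, 7.11 and 7.21 in control (0.33 ± 0.09, adjusted p = 0.0149). In all 3 genes every treated value was above every control value. Slc3a2, the heavy chain that partners Slc7a5 at the membrane, stood at 0.08 ± 0.05 (adjusted p = 0.352), and the glutamine carrier gene Slc38a2 at -0.03 ± 0.06 (adjusted p = 0.78). The call of Slc7a5 ended without the 3 arrays of highest median, at a log2 fold change of 0.29. That of Slc1a5 ended there too, at 0.39. It also ended with arrays centred (adjusted p = 0.117), without control replicate 1 or 2 (0.0559 and 0.0594) and without 70 min replicate 2 (0.0578).

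tRNA synthetases, which charge tRNAs with their amino acids, gave 2 risers of 5. Nars1, for asparagine, read 10.36, 10.35 and 10.30 at 70 min, against 10.02, 9.94 and 9.99 in control (0.36 ± 0.05, SE, adjusted p = 6.6e-05). Gars1, for glycine, read 11.44, 11.48 and 11.46, against 11.09, 11.16 and 11.23 in control (0.30 ± 0.04, adjusted p = 0.000166). Both were apart from control on every array. Sars1, Wars1 and Aars1, for serine, tryptophan and alanine, stood at 0.11 ± 0.05, 0.08 ± 0.06 and -0.04 ± 0.06 and did not pass.

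Of the 9 amino acid and one-carbon enzymes, 2 rose. Shmt2, which makes glycine and one-carbon units from serine in mitochondria, read 9.67, 9.43 and 9.40 at 70 min, against 9.18, 9.22 and 9.25 in control, with replicate 1 well above the other treated arrays (0.28 ± 0.07, SE, adjusted p = 0.0145). Aldh18a1, the first enzyme of proline synthesis from glutamate, read 9.70, 9.77 and 9.80, against 9.59, 9.51 and 9.58 in control (0.19 ± 0.06, adjusted p = 0.0296). Asns, the asparagine synthetase gene and a textbook ATF4 target, read 9.71, 9.60 and 9.63 at 70 min, against 9.58, 9.55 and 9.57 in control, so that the groups were apart but by only 0.08 ± 0.06 (adjusted p = 0.384). The serine synthesis genes Phgdh, Psat1 and Psph stood at 0.29 ± 0.14, -0.04 ± 0.05 and 0.07 ± 0.08. Mthfd2, of mitochondrial folate metabolism, was at 0.04 ± 0.06, Pycr1, the last step of proline synthesis, at 0.14 ± 0.10, and Cth, which makes cysteine from cystathionine, at 0.19 ± 0.08, and none of these passed. The call of Shmt2 ended without 70 min replicate 1 or control replicate 1 (0.0611 and 0.0669), with arrays centred (0.164) and without the trend (0.0658). That of Aldh18a1 ended without control replicate 1, 2 or 3 (0.0656, 0.112 and 0.0635) and without 70 min replicate 2 or 3 (0.0874 and 0.114). It also ended after quantile normalization (0.0648), with arrays centred (0.261), without the trend (0.125) and without the 3 arrays of highest median, at a log2 fold change of 0.13. Cth was called after quantile normalization (0.0354).

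**Figure D2:**
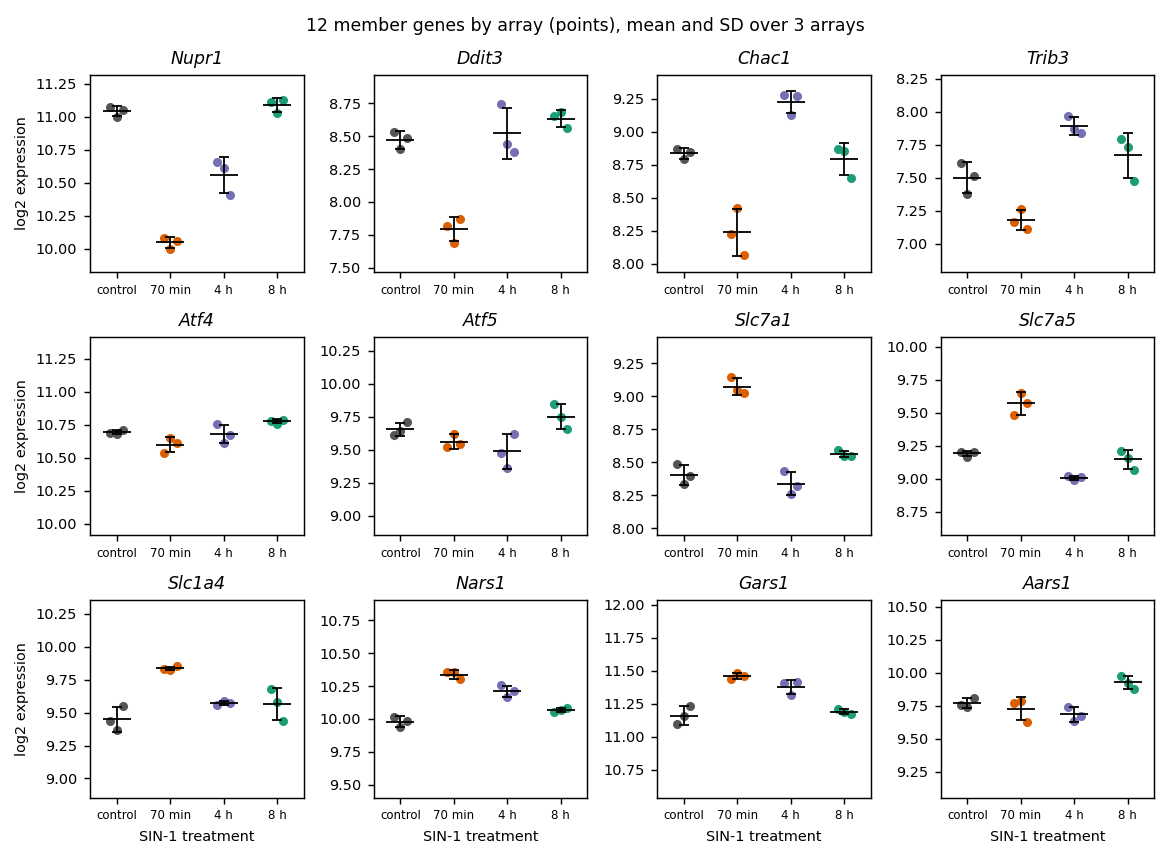
Points are the log2 expression of 12 member genes on each array, by group, and black bars show the mean and SD over 3 arrays; every panel spans 1.5 log2 units. Nupr1, Ddit3, Chac1 and Trib3 dip at 70 min, Slc7a1, Slc7a5 and Slc1a4 peak there, Nars1 and Gars1 stay above control at 4 h, and Atf4 stays between 10.54 and 10.79 on every array.

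Further genes of the pathway, from lists of related genes rather than members, were also called in both directions at 70 min. Whether the calls of these single genes, here and below, held in other settings was not tested. Of 124 measured, 27 were higher and 18 lower, where 6.76% of all genes were higher and 7.81% lower, and their median of 0.03 was that of all genes. Of 11 genes for eIF2 kinases, subunits and regulators, 3 rose and 1 fell. Eif2ak3, which encodes the eIF2 kinase PERK of the endoplasmic reticulum, rose by 0.53, Eif2s1, the eIF2 subunit that the kinases phosphorylate, by 0.46, and Ppp1r15b, a constitutive eIF2 phosphatase subunit, by 0.29, while the exchange factor gene Eif2b2 fell by 0.34. Among 17 other cytosolic tRNA synthetases and their scaffold proteins 6 rose and 1 fell, with Aimp2 at 0.58, Vars1 at 0.34, Aimp1 at 0.33 and Yars1 at 0.32. Among 15 mitochondrial tRNA synthetases 0 changed, with a median of -0.11, and the difference between these lists was not tested.

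Other amino acid transporters went both ways, 3 of 23 rising and 4 falling. Slc7a8, of the same exchanger family as Slc7a5, rose by 0.79 and the glutamine carrier gene Slc38a1 by 0.70, whereas Slc7a7 fell by 0.56 and the lysosomal Slc38a9 by 0.53. Among 25 further amino acid and one-carbon enzymes 6 rose and 4 fell. The folate enzyme genes Shmt1 and Mthfd1l rose by 0.66 and 0.65 and Ddah1 by 0.68, and the alanine transaminase gene Gpt2 fell by 0.50. Of 33 other ATF4-linked genes 9 rose and 8 fell, led by Sesn3, a stress-inducible relative of Sesn2 that restrains mTORC1, at -1.49 (8.61 at 70 min against 10.10 in control), Gadd45b at -0.73, Tnfrsf10b at 0.72 and Xbp1 at 0.55.

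At 4 h of SIN-1 the division had a different make-up. Chac1 and Trib3 were now above control, Nupr1 was still below, and Nars1 and Gars1 were still above, while none of the 6 transporters was called. In all 5 of 33 members were called, 4 higher and 1 lower, compared with 3.85% of all genes (2.08% higher and 1.77% lower) and 7.05% of the brighter genes. The members' median was 0.03, against 0.01 for all genes, and the values of 9 members did not overlap with control, where 20.3% of all genes did not. Their median absolute log2 fold change was 0.087, against 0.114 for all genes and 0.112 for the brighter genes. With arrays centred on their medians, or in the model with no trend, the count was 1, Nupr1.

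Nupr1 read 10.66, 10.61 and 10.40 at 4 h, against 11.08, 11.002 and 11.05 in control, all lower, by 0.48 on the log2 scale (-0.48 ± 0.06, SE, adjusted p = 0.00014). Chac1 read 9.28, 9.13 and 9.27, against 8.87, 8.79 and 8.85 in control, all higher (0.39 ± 0.09, adjusted p = 0.0161). Trib3 read 7.96, 7.87 and 7.84, against 7.61, 7.37 and 7.52 in control (0.39 ± 0.10, adjusted p = 0.0285). Chac1 and Trib3 were thus on the other side of control from where they stood at 70 min. Leaving out replicate 2 or 3 of control, or replicate 1 of 4 h, ended both calls (Chac1 0.0819, 0.052 and 0.0651; Trib3 0.154, 0.0837 and 0.117), as did centring (0.0531 and 0.0998) and the model with no trend (0.0807 and 0.0801). For Chac1 so did leaving out replicate 1 of control or replicate 3 of 4 h (0.0501 and 0.0572), and for Trib3 replicate 2 of 4 h or the 3 arrays of highest median (0.0621 and 0.0588).

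Nars1 read 10.25, 10.17 and 10.21 at 4 h, against 10.02, 9.94 and 9.99 in control (0.23 ± 0.05, SE, adjusted p = 0.0104), and Gars1 11.41, 11.32 and 11.42, against 11.09, 11.16 and 11.23 in control (0.22 ± 0.04, adjusted p = 0.00885). Both kept every treated value above every control value. The call of Nars1 ended without control replicate 2 (0.0671), with arrays centred (0.116) and without the trend (0.145). That of Gars1 ended without control replicate 1 or the 3 arrays of highest median (0.0682 and 0.0624), with arrays centred (0.068) and without the trend (0.19).

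Ddit3, lower at 70 min, did not pass at 4 h (0.05 ± 0.09) and was scattered, at 8.74, 8.44 and 8.38, against 8.53, 8.40 and 8.49 in control. Ddit4 was higher on every array, at 7.34, 7.15 and 7.02, against 6.99, 6.56 and 6.99 in control, yet the spread left 0.33 ± 0.14 short of the threshold (adjusted p = 0.275). Ppp1r15a stood at 0.25 ± 0.11 (adjusted p = 0.316) and Atf4 at -0.01 ± 0.05. Among transporters, Slc7a5 read 9.02, 8.99 and 9.02, all below the control values of 9.20, 9.17 and 9.21, without passing (-0.18 ± 0.06, adjusted p = 0.122). None of the 9 enzymes passed, the widest being Phgdh at 0.22 ± 0.14. In the wider pathway 15 of 124 genes were higher and 1 lower at 4 h, where 2.08% of all genes were higher and 1.77% lower. Eif2ak3 remained higher by 0.37, Aimp2 by 0.35 and Slc7a8 by 0.68, Slc6a6 fell by 0.32, and the mitochondrial synthetase gene Pars2 rose by 0.58. Of the enzymes Ddah1 (0.48), Mthfd1l (0.47), Mthfd1 (0.41) and Tyms (0.34) rose, and of the other ATF4-linked genes Gadd45a (0.39), Ero1a (0.36), Hspd1 (0.30) and Atf6 (0.29). With arrays centred, 341 of all genes were called at 4 h, against 699 without centring, and how these further genes fared was not tested.

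**Figure D3:**
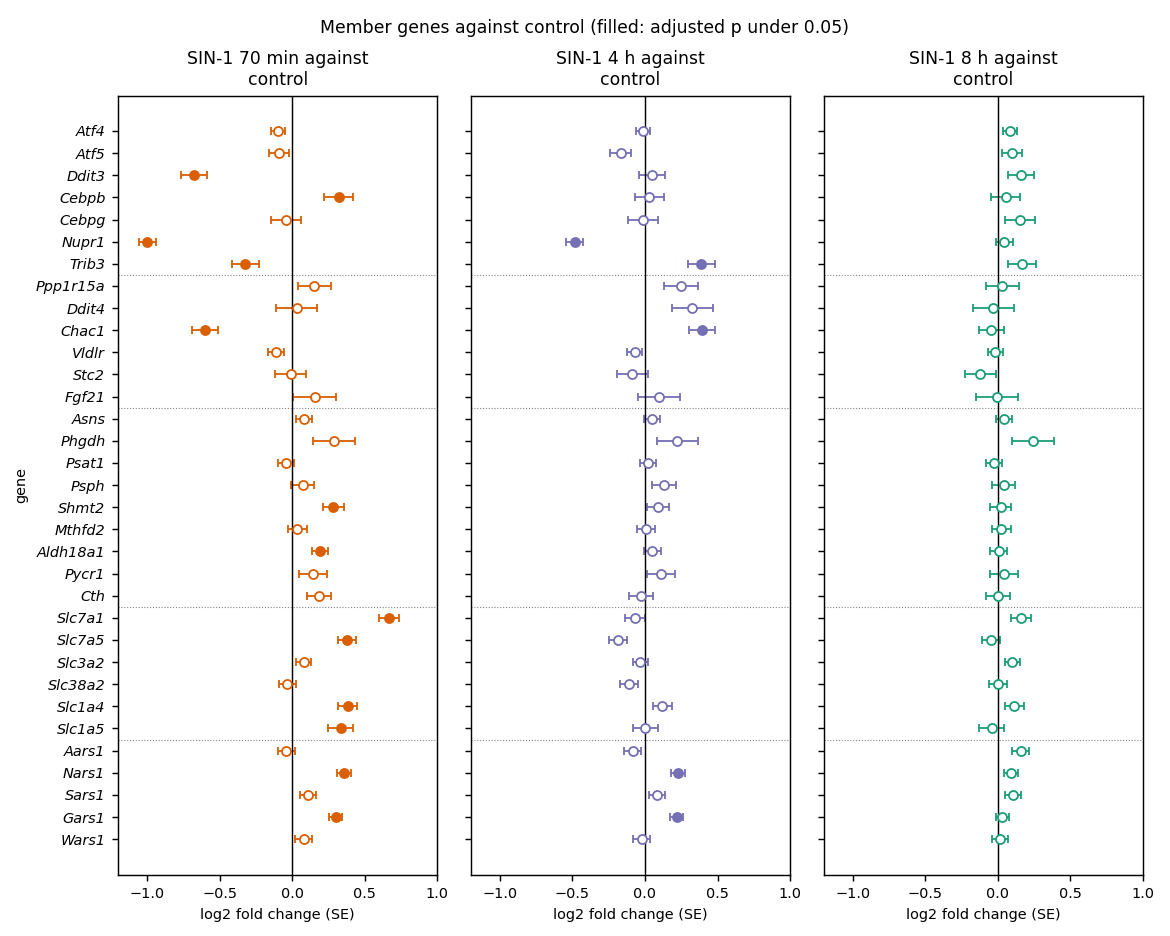
Log2 fold change of each member against control at 70 min, 4 h and 8 h, with bars of 1 SE; filled points have a limma adjusted p under 0.05, and dotted lines divide the roles. At 70 min 13 points are filled, at 4 h 5 and at 8 h 0.

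At 8 h 0 of 33 members were called by limma, compared with 0.0275% of all genes, 5 in number (0.022% higher and 0.0055% lower), and 0.055% of the brighter genes. At an unadjusted p under 0.05, which 5.47% of all genes passed, 2 of 33 members did, Slc7a1 at 0.16 ± 0.07 and Aars1 at 0.16 ± 0.06 (adjusted p = 0.906 and 0.876). Member fold changes ran from -0.12 for Stc2 to 0.24 for Phgdh, with a median of 0.04, against 0.01 for all genes. The 95% intervals of 32 members lay within ± 0.5 on the log2 scale, and that of Phgdh reached 0.55. The values of 7 members did not overlap with control, where 13.2% of all genes did not: Atf4, Ddit3, Cebpg, Slc7a1, Aars1, Nars1 and Sars1, each of them higher. Nupr1 read 11.11, 11.03 and 11.13 at 8 h, against 11.08, 11.002 and 11.05 in control. Chac1 read 8.87, 8.86 and 8.65, against 8.87, 8.79 and 8.85 in control, and Slc7a5 9.21, 9.16 and 9.07, against 9.20, 9.17 and 9.21. Of the 13 genes called at 70 min, 10 thus overlapped with control at 8 h. Ddit3, which was below control at 70 min, lay above it at 8 h, and Ddit3 and Slc7a1 had both overlapped with control at 4 h. In the wider pathway 0 of 124 genes were called.

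Whether the effects at 70 min and 4 h differed was tested directly by setting the 4 h arrays against the 70 min arrays. Of the 33 members 8 differed, 4 higher and 4 lower at 4 h, compared with 7.63% of all genes (4.48% higher and 3.15% lower) and 13.9% of the brighter genes. The 4 that were higher at 4 h were the regulators and effector that had been low at 70 min. Chac1 stood 0.99 ± 0.09 higher (SE, adjusted p = 1.03e-06), Ddit3 0.73 ± 0.09 (5.08e-05), Trib3 0.71 ± 0.10 (0.000124) and Nupr1 0.51 ± 0.06 (2.78e-05). The 4 that were lower at 4 h were all transporters. Slc7a1 stood at -0.74 ± 0.07 (adjusted p = 2.23e-06), Slc7a5 at -0.56 ± 0.06 (1.24e-05), Slc1a5 at -0.33 ± 0.09 (0.026) and Slc1a4 at -0.26 ± 0.07 (0.0195). With arrays centred the split was 4 higher and 2 lower among members, and 738 higher and 270 lower among all genes, against 814 and 572 without centring. The values of 16 members, these 8 among them, did not overlap between the times, where 21% of all genes did not. The median absolute log2 fold change was 0.096 for members, 0.132 for all genes and 0.135 for the brighter genes. The 70 min arrays are those that entered the comparison with control, so these comparisons are not independent.

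Nars1 and Gars1, at -0.13 ± 0.05 and -0.08 ± 0.04, did not differ past the threshold between 4 h and 70 min (adjusted p = 0.135 and 0.329), nor did Atf4 at 0.08 ± 0.05. The calls of Slc1a4 and Slc1a5 ended in several settings. Without the 3 arrays of highest median both ended, at log2 fold changes of -0.26 and -0.33. With arrays centred their adjusted p was 0.196 and 0.178. That of Slc1a4 also ended without 70 min replicate 2 or 3 (0.0562 and 0.0721), 4 h replicate 1 (0.0544) or the trend (0.103). That of Slc1a5 ended without 70 min replicate 1 or 2 (0.0589 and 0.0971), 4 h replicate 2 or 3 (0.0709 and 0.0855), when arrays were weighted by quality (0.0542) and when the other groups were left out of the model (0.102). Among other genes of the pathway 9 of 124 were higher and 11 lower at 4 h than at 70 min, with Sesn3 higher by 1.29. Of all genes 4.48% were higher and 3.15% lower.

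Between 8 h and 4 h, 5 of 33 members differed, 3 higher and 2 lower, compared with 3.51% of all genes (1.97% higher and 1.54% lower) and 6.51% of the brighter genes. The values of 12 members did not overlap between these times, where 18.7% of all genes did not. The median absolute log2 fold change was 0.0955 for members, 0.1117 for all genes and 0.1107 for the brighter genes. With arrays centred the split was 1 higher and 1 lower among members, and 199 higher and 101 lower among all genes, against 358 and 279 without centring. Nupr1 rose further, by 0.53 ± 0.06 (SE, adjusted p = 4.76e-05). Chac1 fell by 0.44 on the log2 scale (-0.44 ± 0.09, adjusted p = 0.00801), Aars1 was higher by 0.24 ± 0.06 (0.0269), Atf5 higher by 0.26 ± 0.07 (0.0451) and Gars1 lower, at -0.19 ± 0.04 (0.0248). Aars1 read 9.98, 9.93 and 9.88 at 8 h, against 9.74, 9.64 and 9.67 at 4 h, and Atf5 9.85, 9.75 and 9.66, against 9.47, 9.36 and 9.62. The 8 h values lay above the 4 h values in both genes, by a narrow margin in Atf5. The call of Nupr1 held in each of the 15 alternatives run. That of Chac1 ended without the trend (0.0549), and those of Aars1, Atf5 and Gars1 ended there too (0.172, 0.194 and 0.278), with arrays centred (0.134, 0.083 and 0.217) and with the compared groups alone (0.0776, 0.141 and 0.0797). Without the 3 arrays of highest median Aars1 and Gars1 also lost theirs (0.0645 and 0.126). The calls of Aars1 and Atf5 ended without 4 h replicate 2 (0.104 and 0.18) or 8 h replicate 1 or 2 (0.0973 and 0.109; 0.168 and 0.146). Aars1 also lost its call without 4 h replicate 3 (0.078), and Atf5 without 4 h replicate 1 (0.0984). That of Gars1 ended without 4 h replicate 1 or 3 (0.0754 and 0.0975) or 8 h replicate 2 or 3 (0.109 and 0.077).

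**Figure D4:**
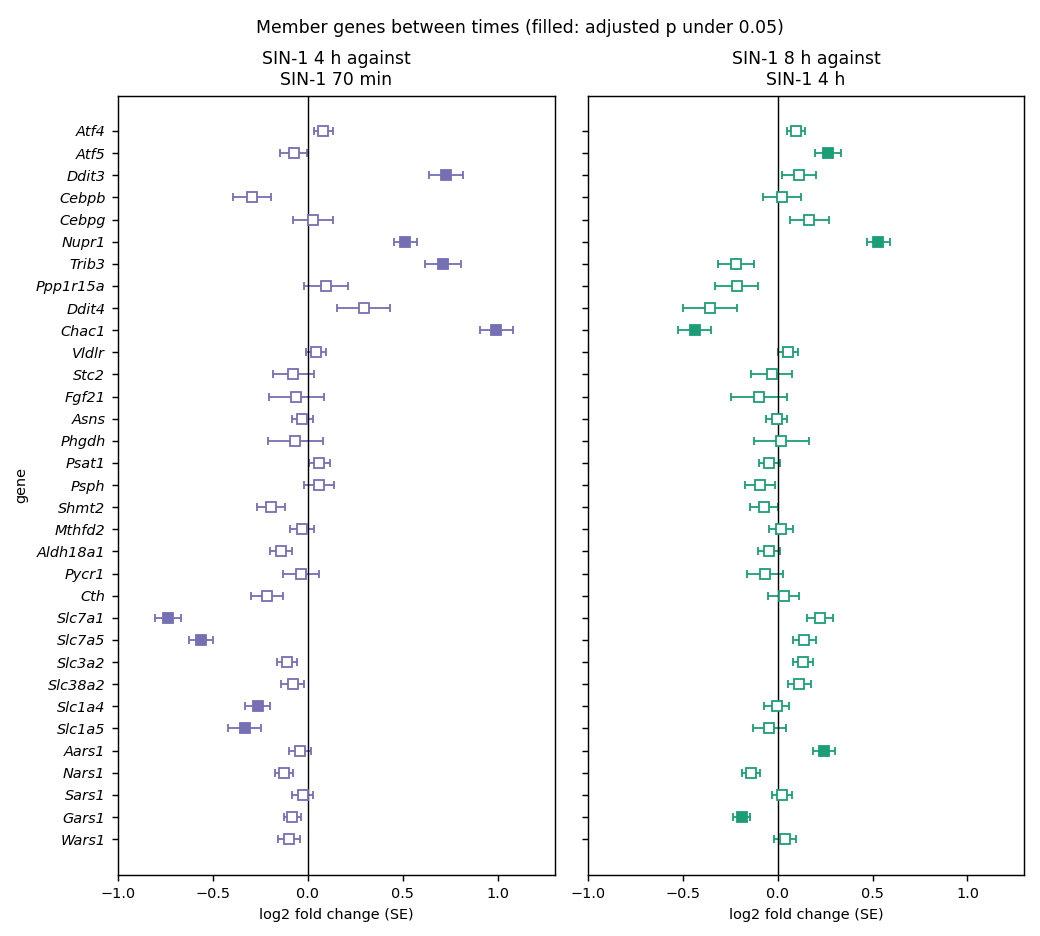
Log2 fold change of each member at 4 h against 70 min (left) and at 8 h against 4 h (right), with bars of 1 SE and filled squares for a limma adjusted p under 0.05. Ddit3, Nupr1, Trib3 and Chac1 lie to the right in the left panel and the 4 called transporters to the left, and Nupr1 is to the right in both panels.

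Over the course as a whole, the highest of the 4 group means was at 70 min in 17 of 33 members and the lowest was at 70 min in 8. Among all genes the shares were 37.73% and 30.04%. Control held the lowest mean in 13 members, against 26.32% of all genes, and the highest in 2, against 18.11% of all genes. These means were taken without centring, and replicates 2 and 3 of 70 min had the highest array medians (5.11 and 5.12). The part of that in these counts was not tested. By role, the median log2 fold change at 70 min was 0.36 for transporters, 0.14 for enzymes, 0.11 for tRNA synthetases, 0.01 for stress effectors and secreted factors and -0.09 for regulators. At 4 h the same medians were -0.05, 0.05, 0.08, 0.17 and -0.01. At 8 h they were 0.05, 0.03, 0.09, -0.02 and 0.10.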

How the data were processed

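RNA of primary rat cardiomyocytes was hybridised to 12 one-colour Affymetrix arrays. The deposited values were made by the authors with Affymetrix Expression Console 1.3.1.187 and RMA, per the submitters' processing notes, and they are log2 expression as judged from their range of 1.19 to 13.63. No genome build was needed for them. Of 36685 probes, 18511 had 1 gene symbol in the platform's table, 575 had several and were not named, and 17599 were unlisted. Each of 18166 genes was read from its probe of highest mean. limma 3.58.1 (R 4.3.3; lmFit and eBayes with a trend) was fitted to all 12 arrays in 1 model by group, with Benjamini-Hochberg adjustment over all genes of a comparison, and was tested on simulated data. Precision is limited by the number of arrays. The text names every member, and from the further pathway lists up to 4 called genes of largest change against control per list. The members, the lists and the tests were chosen with earlier results of these data known. Alternatives were the replicate number as a block, no trend, array weights, quantile normalization, centring on array medians, only the brighter genes, averaging the probes of a gene, only the groups compared, and leaving out single arrays or the 3 of highest median. Promoters are from RefSeq (GRCr8).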

Additional observations from a re-analysis of the deposited data

Results flagged for a closer look

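The results here are differences between treated times, each tested by limma between the arrays of the later and the earlier time, with a p adjusted over all genes. Single outlying arrays were not tested for in these groups of 3.

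Between 4 h and 70 min, Chac1 was higher at 4 h by 0.99 (adjusted p = 1.03e-06), Ddit3 by 0.73 (5.08e-05), Trib3 by 0.71 (0.000124) and Nupr1 by 0.51 (2.78e-05) on the log2 scale, in every array at 4 h against every array at 70 min. The transporter genes Slc7a1 (-0.74, adjusted p = 2.23e-06), Slc7a5 (-0.56, 1.24e-05), Slc1a5 (-0.33, 0.026) and Slc1a4 (-0.26, 0.0195) were lower at 4 h. Between 8 h and 4 h, Nupr1 was higher at 8 h by 0.53 (adjusted p = 4.76e-05), Atf5 by 0.26 (0.0451) and Aars1 by 0.24 (0.0269), and Chac1 (-0.44, 0.00801) and Gars1 (-0.19, 0.0248) were lower. These results do not hold equally well. Between 8 h and 4 h, the calls of Atf5, Aars1 and Gars1 were each lost in 8 of 15 alternatives and that of Chac1 in 1. Between 4 h and 70 min, those of Slc1a4 and Slc1a5 were lost in several settings, as given above.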

How the results depend on the processing

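No member that was called changed direction in any of the 15 alternatives. Of the called members, 7 of 13 at 70 min, 1 of 5 at 4 h, 6 of 8 between 4 h and 70 min and 1 of 5 between 8 h and 4 h kept their call in all of them. Without the 3 arrays of highest median, 8 members were called at 70 min, 3 at 4 h and 3 between 8 h and 4 h, and of all genes 1046 at 70 min (2647 with all arrays) and 318 between 4 h and 70 min (1386 with all arrays). Without the trend, 1 member was called at 4 h and 1 between 8 h and 4 h, and 339, 2 and 315 of all genes at 4 h, at 8 h and between 8 h and 4 h, where the model with the trend called 699, 5 and 637. With arrays centred, 1 member at 4 h and 2 between 8 h and 4 h were called, and 341 and 300 of all genes. With the compared groups alone, which uses fewer arrays, the counts were 2 members and 330 genes between 8 h and 4 h and 763 genes between 4 h and 70 min. Array weights gave 37 of all genes at 8 h. Leaving out single arrays gave 8 to 11 members and 1751 to 3106 genes at 70 min, 2 to 4 members and 373 to 575 genes at 4 h, 885 to 1799 genes between 4 h and 70 min, and 2 to 4 members and 299 to 504 genes between 8 h and 4 h. Of 18 same-numbered pairs of arrays, 5 had deviations from their group means correlated above 0.1, and 4 of 12 arrays correlated best with their own number. The correlations ran from -0.32 to 0.24 in same-numbered pairs and from -0.41 to 0.40 in the others. That spread cannot decide whether same-numbered arrays shared a culture or a day. With the replicate number as a block, 13, 5 and 0 members were called at 70 min, 4 h and 8 h, 8 between 4 h and 70 min and 4 between 8 h and 4 h, where Atf5 lost its call (adjusted p = 0.061), and 9 of all genes were called at 8 h. The causes of these shifts were not tested.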
